A study of Arabidopsis thaliana with 12 samples.

Results

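The xyloglucan endotransglucosylase/hydrolase genes (XTH genes) of Arabidopsis thaliana roots were followed across arsenate, hypoxia and both treatments together. The members were every gene with an array row of its own whose annotated symbol was XTH followed by a number, which gave 9 of the 16550 genes measured: XTH16 (AT3G23730), XTH18 (AT4G30280), XTH19 (AT4G30290), XTH20 (AT5G48070), XTH21 (AT2G18800), XTH26 (AT4G28850), XTH29 (AT4G18990), XTH32 (AT2G36870) and XTH33 (AT1G10550). Each had 1 row. RefSeq lists 33 genes of the family, and 1 further gene, EXGT-A3 (AT2G01850, also called XTH27), was measured under another symbol. The other 23 were not analysed here.

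Wild-type Col-0 plants were grown in hydroponic culture, and total RNA of whole roots was hybridised to 12 Affymetrix arrays when plants were 39 days old, after 7 days of treatment. Control roots were untreated, arsenic roots received 250 µM arsenate (Na2HAsO4), hypoxia roots stood in hypoxic nutrient medium, and combination roots received both. Each of the 4 groups had 3 arrays, which the series text describes as independent biological replicates. The oxygen content of the hypoxic medium is not given in the sources used here.

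Xyloglucan is the main hemicellulose of the primary wall in dicot plants, where it coats cellulose microfibrils and links to them. XTH enzymes cut a xyloglucan chain and join the cut end to another chain (endotransglucosylase activity), or, in a few members, to water (hydrolase activity). In this way they loosen, rebuild or strengthen the wall while a cell elongates. The family is large in Arabidopsis, and its members differ in the organs, cell types and stresses in which their transcripts are found.

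Values are log2 signals after RMA, so a difference of 1 is a doubling, and a level of 1 gene cannot be set against the level of another because each row rests on different probes. Pearson r over all genes was 0.972 to 0.991 for pairs of arrays within a group and 0.924 to 0.982 for pairs between groups. Across arrays, the lower quartile of all genes ran from 3.01 to 3.39 and the median from 4.87 to 5.06. Of 9 root hair and epidermis markers 2 had a row, EXPA7 and EXPA18, and both were measured in control roots, at 8.10 ± 0.32 and 5.97 ± 0.64 (SD, n = 3). Markers of endodermis, stele and xylem, root cap and meristem, and nutrient uptake had none among the rows annotated with 1 gene. Of 14 green tissue markers PSAN (3.76 ± 0.32 in control roots) and RCA (5.31 ± 0.17) were measured. PSAN was lower with arsenate (2.85 to 3.105) and in the combination (2.46 to 3.38) than in control roots (3.44 to 4.09). RCA was higher under hypoxia (5.81 to 6.01 against 5.15 to 5.48). None of these ranges overlapped with control, as for 20.8% (arsenate, downwards), 20.9% (combination, downwards) and 20.5% (hypoxia, upwards) of all genes. The part of PSAN and RCA in the XTH values was not tested. Changes are differences between group means, tested with limma across all 16550 genes (two-sided, Benjamini-Hochberg adjusted p under 0.05), and "rose" or "fell" is written of those that passed. Subtracting each array's own median first moves changes against control up by 0.09 (arsenic), 0.13 (hypoxia) and 0.14 (combination), and over all genes the split of rises and falls turns from 1380 and 1585 to 1803 and 1228 with arsenate, from 1791 and 2269 to 3153 and 1834 under hypoxia, from 2158 and 2420 to 3645 and 1971 in the combination, from 882 and 1104 to 1043 and 991 in the combination against arsenic, and from 221 and 236 to 157 and 270 in the interaction. The XTH changes against control kept their signs and calls under this re-centring.

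XTH21, which acts in the growth of the primary root, had the largest changes of the family against control. In control roots its signal was 7.14, 7.49 and 7.41 on arrays 1 to 3. Arsenic roots had 4.17, 4.86 and 4.81, hypoxia roots 4.46, 4.23 and 3.30, and combination roots 3.41, 3.39 and 3.86. No treated array came near the controls, while the hypoxia arrays overlapped those of both arsenic and combination roots. XTH26 is expressed in root hairs, the tip-growing epidermal cells that extend the absorbing surface. Its control arrays read 7.03, 6.71 and 6.59, its arsenic arrays 4.41, 5.05 and 4.50, its hypoxia arrays 4.08, 5.78 and 4.29, and its combination arrays 4.90, 3.64 and 4.15. All 9 treated arrays lay below the controls, and the treated groups overlapped one another, with hypoxia array 2 apart from the other hypoxia arrays.

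XTH18, XTH19 and XTH20 belong, with XTH17, to a closely related set expressed in roots. XTH18 and XTH19 are direct neighbours in the RefSeq gene order, and transcripts of such close paralogs can bind each other's probes. XTH18 read 7.36, 6.92 and 6.68 in control roots, 5.92, 5.49 and 5.25 with arsenate, 6.62, 5.03 and 3.89 under hypoxia, and 5.59, 3.59 and 5.06 in the combination. Hypoxia array 1 (6.62) came close to the lowest control array (6.68), and the spread under hypoxia (SD 1.37) was the widest of any XTH gene in any group. Array 1 was the highest for XTH18 in every group. XTH19 was tight by comparison, at 4.38, 4.47 and 4.57 in control roots, 3.14, 3.42 and 3.63 with arsenate, 2.85, 3.25 and 2.60 under hypoxia, and 2.65, 2.76 and 2.53 in the combination. Its control arrays stood clear of every treated array. XTH20 read 5.63, 5.13 and 4.98 in control roots, 3.96, 4.64 and 3.87 with arsenate, 2.97, 4.38 and 3.84 under hypoxia, and 2.18, 3.16 and 3.62 in the combination. Its control arrays too were the highest, and arsenic and hypoxia arrays were intermixed.

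XTH16 showed the most distinct steps between groups. Its signal was 4.78, 5.21 and 5.68 in control roots, 2.97, 2.67 and 3.06 with arsenate, 2.23, 2.28 and 2.32 under hypoxia, and 1.899, 1.995 and 1.977 in the combination. The 4 groups did not overlap, but the step from hypoxia to combination did not pass the test (-0.32, limma adjusted p = 0.410). Downwards separation was also found for 20.8% of all genes between arsenic and control roots and for 9.21% between combination and hypoxia roots. How many genes were separated in all 4 groups was not counted. The signal of XTH16 was at the 46.6th to 58.2nd percentile of all genes on the control arrays and at the 18.6th to 25.3rd with arsenate. It was at the low end of the scale under hypoxia (6.62nd to 9.24th percentile) and in the combination (3.25th to 4.90th). On each combination array 3 XTH genes, among them XTH16 and XTH19, were below the lower quartile of all genes. XTH33 carries a predicted membrane anchor, unlike most of the family. It read 6.81, 7.07 and 7.05 in control roots, 5.67, 5.85 and 5.80 with arsenate, 5.93, 5.42 and 4.95 under hypoxia, and 5.82, 5.10 and 5.22 in the combination. The arsenic arrays fell inside the range of the hypoxia arrays, and all were below the controls.

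XTH32 belongs to the small subgroup, with XTH31, to which hydrolase activity is ascribed. It read 5.14, 4.86 and 4.81 in control roots, 4.46, 4.19 and 4.48 with arsenate, 3.87, 3.72 and 3.40 under hypoxia, and 3.79, 3.30 and 3.00 in the combination. Control, arsenic and hypoxia arrays formed 3 separate levels. Separation from control downwards was found for 20.8% of all genes with arsenate and for 19.8% under hypoxia. The share of genes separated between hypoxia and arsenic roots is not given here. XTH29, known as a gene responsive to heat and drought, went the other way. It read 2.72, 3.18 and 2.78 in control roots, 3.15, 3.16 and 2.91 with arsenate, 3.98, 3.86 and 3.62 under hypoxia, and 3.86, 3.12 and 3.57 in the combination. The 3 hypoxia arrays were above all control arrays, as for 20.5% of all genes, and above all arsenic arrays. Of the combination arrays, 1 (array 2) lay within the control range. XTH29 was near the low end of the scale. It was below the lower quartile of all genes on control arrays 1 and 3, arsenic arrays 1 and 3 and combination array 2.

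**Figure D1:**
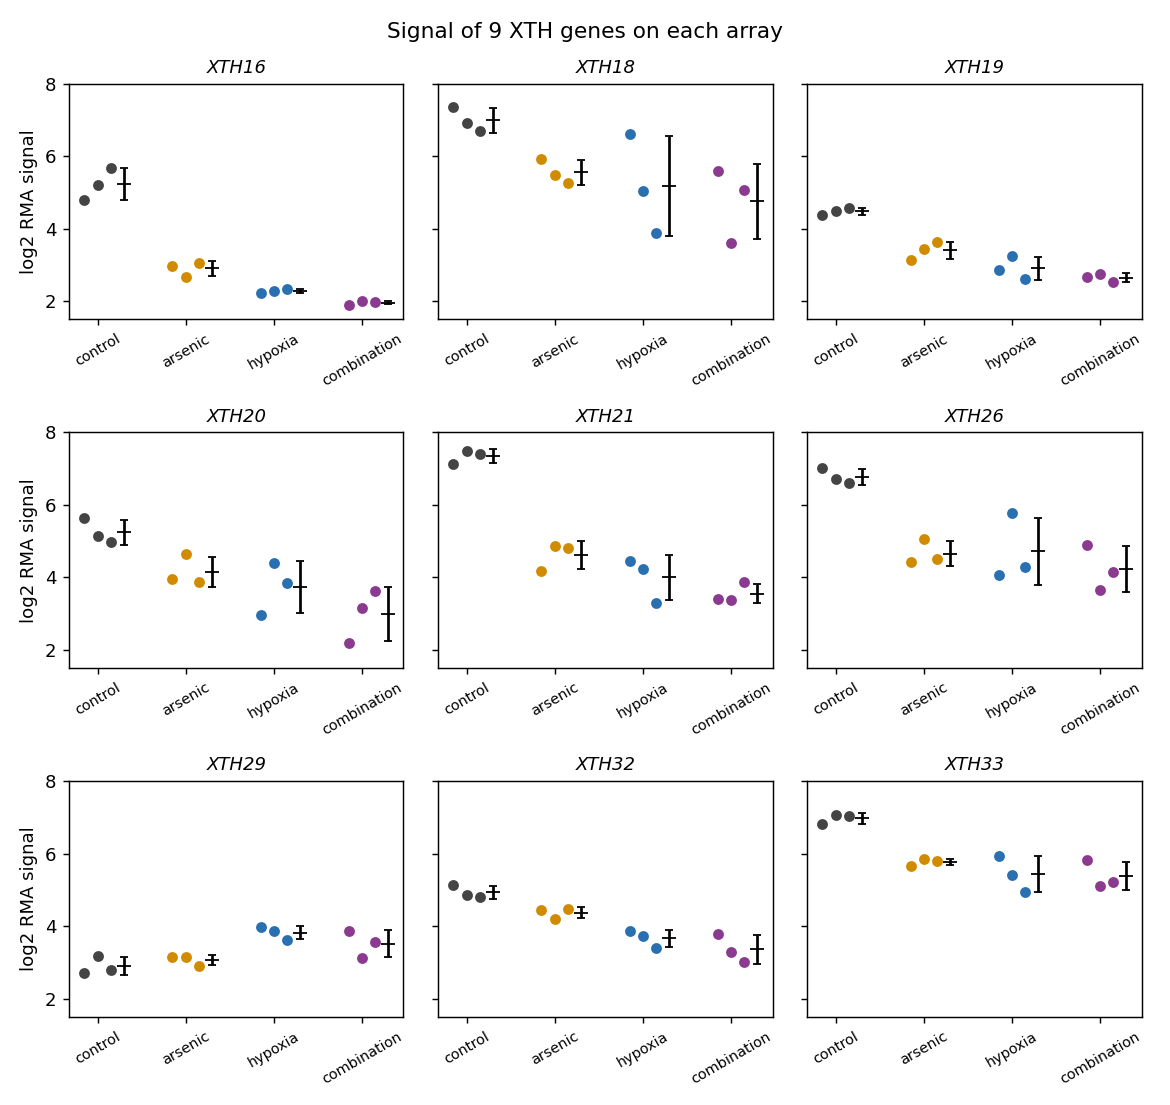
Log2 RMA signal (y axis) of each XTH gene on each array, by group (x axis); points are arrays in the order 1 to 3, and the bar beside them is the group mean with its SD (n = 3). Control arrays are the highest for 8 genes, and XTH29 is highest under hypoxia.

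By group means, 7 of the 9 genes had the order control, arsenic, hypoxia and combination from high to low. XTH26 differed in that its hypoxia mean (4.72) was above its arsenic mean (4.65), and XTH29 ran from hypoxia (3.82) over combination (3.52) and arsenic (3.07) down to control (2.89). Of the neighbours in this order, hypoxia and combination did not differ in the tests below for any of the 7, arsenic and hypoxia differed for XTH16 and XTH32, and control and arsenic differed for all but XTH18, XTH20 and XTH32.

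Arsenate alone was compared with control roots to show its effect in medium that was not made hypoxic. Of the 9 XTH genes 5 fell, none rose and 4 did not pass, where 9.58% of all genes fell and 8.34% rose. XTH21 fell 6.65-fold (log2 change -2.73, SE 0.28, adjusted p = 4.32e-05), XTH16 5.01-fold (-2.33, SE 0.20, adjusted p = 1.29e-05) and XTH26 4.35-fold (-2.12, SE 0.40, adjusted p = 0.00301). XTH33 fell by 1.203 (adjusted p = 0.00388) and XTH19 fell by 1.08 (adjusted p = 0.00129). The change of XTH21 was the 44th lowest of the 16550 genes, that of XTH16 the 76th and that of XTH26 the 99th. The RNA came from whole roots, so fewer cells of a type and less RNA per cell cannot be told apart here or below.

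The other 4 genes had log2 changes of -1.44 (XTH18, SE 0.59, adjusted p = 0.119), -1.09 (XTH20, SE 0.39, adjusted p = 0.0747), -0.56 (XTH32, SE 0.20, adjusted p = 0.0776) and 0.18 (XTH29, SE 0.20, adjusted p = 0.613). For XTH18, XTH20 and XTH32 every arsenic array was below every control array, although they did not pass. Such separation downwards was found for 8 of the 9 XTH genes and for 20.8% of all genes. The median change was -1.20 over the XTH genes and -0.01 over all genes. With array weights, or with the arsenic and control arrays fitted alone, XTH18, XTH20 and XTH32 also passed (8 falls). Falls over all genes rose there too, from 1585 to 2540 with array weights and to 1967 with those arrays alone.

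Hypoxia alone was compared with control roots to show the effect of low oxygen without arsenate. All 9 genes passed: 8 fell and XTH29 rose, where 13.7% of all genes fell and 10.8% rose. XTH21 fell 10.2-fold (log2 change -3.35, SE 0.28, adjusted p = 5.46e-06), the 27th lowest change of all genes. XTH16 fell 7.73-fold (-2.95, SE 0.20, adjusted p = 1.18e-06) and XTH26 4.17-fold (-2.06, SE 0.40, adjusted p = 0.00271). XTH29 rose 1.90-fold (0.93, SE 0.20, adjusted p = 0.00482).

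Among the root set, XTH19 fell by 1.57 (SE 0.18, adjusted p = 5.99e-05), XTH20 fell by 1.51 (SE 0.39, adjusted p = 0.0136) and XTH18 fell by 1.81 (SE 0.59, adjusted p = 0.0406). XTH33 fell by 1.54 (adjusted p = 0.000521) and XTH32 fell by 1.27 (adjusted p = 0.000657). The call of XTH18 was the least secure. It was lost without control 1, 2 or 3 or hypoxia 2 or 3 (adjusted p from 0.0631 to 0.147), with quantile normalization repeated (0.0508), with the compared groups alone (0.0653) and over every row of the table (0.0662). The change of XTH18 was -1.16 without hypoxia 3. The call of XTH20 was lost without control 1 (adjusted p = 0.0547). The median change was -1.57 over the XTH genes and 0.07 over all genes. All 8 falling genes were separated from control, as were 19.8% of all genes downwards, and XTH29 was separated upwards, as were 20.5%.

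The combination was compared with control roots to describe the joint effect. Again 8 genes fell and XTH29 rose, with 14.6% of all genes falling and 13.0% rising. XTH21 fell 13.9-fold (log2 change -3.80, SE 0.28, adjusted p = 1.42e-06), XTH16 9.63-fold (-3.27, SE 0.20, adjusted p = 3.51e-07) and XTH26 5.83-fold (-2.54, SE 0.40, adjusted p = 0.000458). XTH20 fell by 2.26 (adjusted p = 0.000876), XTH18 fell by 2.24 (adjusted p = 0.0125) and XTH19 fell by 1.83 (adjusted p = 1.16e-05). XTH33 fell by 1.60 (adjusted p = 0.000283) and XTH32 fell by 1.57 (adjusted p = 9.52e-05). The arrays of these 8 genes did not overlap with control, as for 20.9% of all genes downwards. The median was -2.24 over the XTH genes and 0.09 over all genes.

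XTH29 rose 1.54-fold in the combination (0.62, SE 0.20, adjusted p = 0.0336), with the combination and control arrays overlapping. This call was lost without control 1 or 3 or combination 1 or 3 (adjusted p from 0.0860 to 0.129), and held without control 2 or combination 2. It was lost as well with array weights (0.39, adjusted p = 0.119), with quantile normalization repeated (0.0714), with the compared groups alone (0.0661) and over every row of the table (0.0524). XTH18 lost its call without combination 2 (-1.66, adjusted p = 0.0608). The 3 comparisons with control share the same 3 control arrays, so their values for a gene are not independent of one another.

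**Figure D2:**
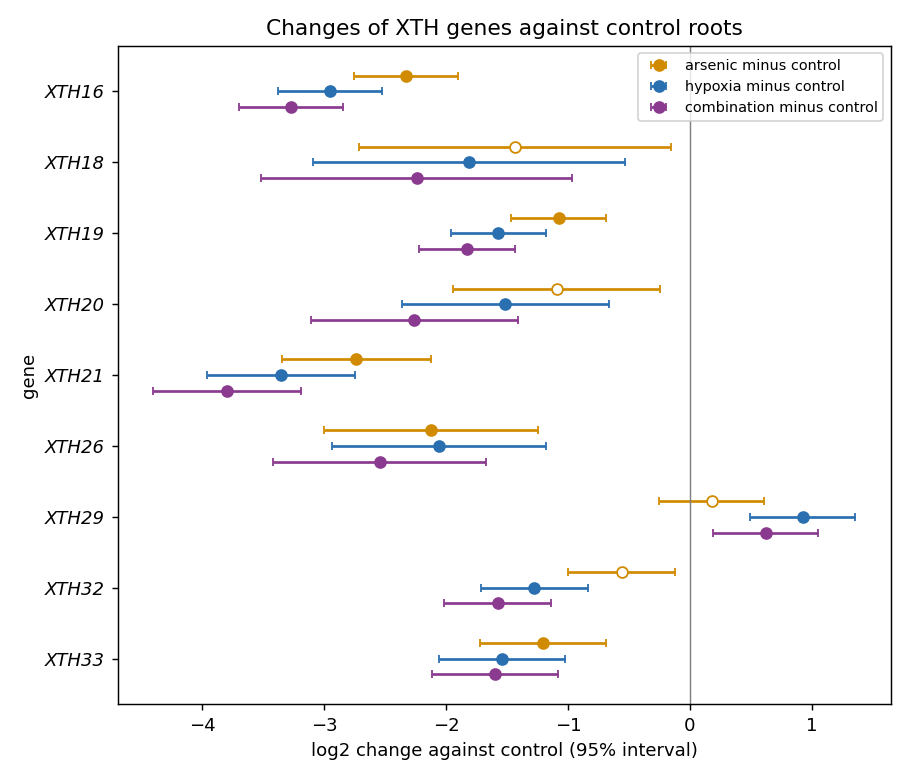
Log2 change of each XTH gene (rows) against control roots (x axis) with its 95% interval from the limma fit, for arsenic, hypoxia and combination; filled points passed at an adjusted p under 0.05. XTH21 and XTH16 have the largest falls in all 3 comparisons, and XTH29 alone lies above 0.

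Adding hypoxia to arsenate was read from the combination against arsenic roots. Of the 9 genes 4 fell, none rose and 5 did not pass, with 6.67% of all genes falling and 5.33% rising. XTH21 fell by 1.06 (SE 0.28, adjusted p = 0.0270), XTH32 fell by 1.02 (SE 0.20, adjusted p = 0.00574), XTH16 fell by 0.94 (SE 0.20, adjusted p = 0.00752) and XTH19 fell by 0.75 (SE 0.18, adjusted p = 0.0169). XTH20 had -1.17 (SE 0.39, adjusted p = 0.0740), with no overlap between the groups, as had the 4 that fell and 14.4% of all genes downwards. XTH26 stood at -0.42 (95% interval -1.30 to 0.45), XTH18 at -0.80 (-2.08 to 0.47), XTH33 at -0.39 (-0.91 to 0.12) and XTH29 at 0.44 (0.01 to 0.87). The falls numbered 2 without arsenic 2 or arsenic 3, when XTH21 and XTH19 no longer passed. XTH21 was lost without combination 1 or 2 as well (adjusted p = 0.0866 and 0.0981) and over every row of the table (0.0506), and XTH19 without combination 3 (0.0526). In turn, XTH20 passed without combination 3 (adjusted p = 0.0368) and with array weights (0.0391).

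Adding arsenate to hypoxia was read from the combination against hypoxia roots. With limma none of the 9 genes passed, where 3.46% of all genes passed (1.88% rose and 1.58% fell). None of the 9 had an unadjusted p under 0.05, against 3142 of all 16550 genes. All 9 differences were negative, from -0.05 (XTH33, 95% interval -0.57 to 0.46) to -0.74 (XTH20, -1.59 to 0.10). XTH16, at -0.32 (-0.74 to 0.11), was the 1 gene whose combination arrays all lay below the hypoxia arrays, a separation found downwards for 9.21% of all genes. The interval was widest for XTH18 (-0.43, from -1.71 to 0.85), so a further fall of more than 2-fold could not be told from no change. For XTH21 the difference was -0.45 (-1.05 to 0.16) and for XTH26 -0.49 (-1.36 to 0.39). The median was -0.32 over the XTH genes and -0.01 over all genes.

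Hypoxia was also set directly against arsenate, a comparison that uses no control array. XTH32 fell by 0.72 (SE 0.20, adjusted p = 0.0241) and XTH16 fell by 0.62 (SE 0.20, adjusted p = 0.0385) in hypoxia relative to arsenic roots, XTH29 rose by 0.75 (SE 0.20, adjusted p = 0.0184), and 6 genes did not pass. Of all genes, 12.3% fell and 9.67% rose. The root hair gene XTH26 was nearly level (0.06, 95% interval -0.81 to 0.94), and XTH21 had -0.62 (-1.22 to -0.01, adjusted p = 0.137). These 3 calls were narrow. None was made without arsenic 3, and 1 was made without hypoxia 1 (XTH32) or without hypoxia 3 (XTH29). XTH16 was lost without any 1 array other than arsenic 2, while XTH19 passed without arsenic 1 (adjusted p = 0.0428), without hypoxia 2 (0.0212), with quantile normalization repeated (0.0276) and with array weights (0.0232). XTH16 also missed the threshold once arrays were re-centred (-0.59, adjusted p = 0.0513).

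The interaction asked whether the combination differed from the sum of the single effects on the log2 scale, that is, whether arsenate acted differently in hypoxic roots. XTH21 (2.29, SE 0.40, adjusted p = 0.00929) and XTH16 (2.01, SE 0.28, adjusted p = 0.00272) passed, both with a combination level above the additive one, and 7 genes did not pass. Of all genes 2.76% passed, 1.34% upwards and 1.43% downwards. For XTH21 arsenate meant a change of -2.73 against control but -0.45 in hypoxic roots. For XTH16 these changes were -2.33 and -0.32. The additive level of XTH16 would have been -0.05, below the lowest signal of any gene on any array (0.84 to 1.09), and that of XTH21 would have been 1.26, below the first percentile of the combination arrays (1.55 to 1.60). A level as low as the additive one was thus not measured for any gene in the case of XTH16.

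In all, 8 genes had a positive and XTH29 had a negative interaction (-0.48, SE 0.28, adjusted p = 0.429). XTH26 stood at 1.64 (95% interval 0.40 to 2.87, adjusted p = 0.163), XTH33 at 1.15 (0.42 to 1.88, adjusted p = 0.0974) and XTH19 at 0.82 (0.27 to 1.37, adjusted p = 0.115). XTH18 had 1.01 (-0.80 to 2.81), XTH20 0.35 (-0.85 to 1.55) and XTH32 0.26 (-0.36 to 0.88). Hypoxia array 2 bore on several of these, since without it XTH26 (2.17, adjusted p = 0.0234) and XTH19 (1.00, adjusted p = 0.0473) passed too. XTH33 passed without hypoxia 1 (1.398, adjusted p = 0.0263). The median was 1.01 over the XTH genes and 0.01 over all genes.

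**Figure D3:**
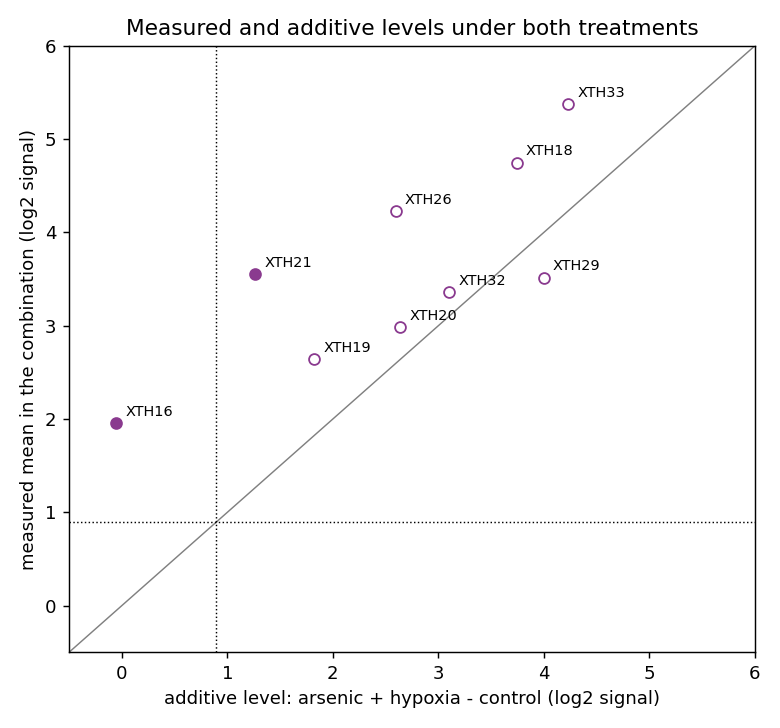
Mean log2 signal measured in combination roots (y axis) against the level expected if the log2 effects of arsenate and hypoxia simply added (x axis), 1 point per XTH gene; the grey line marks equality, dotted lines mark the lowest gene signal on the combination arrays (0.89), and filled points passed the interaction test. XTH16 and XTH21 lie farthest above the line, and XTH29 lies below it.

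Across the 12 arrays the 8 falling genes varied together, with Pearson r from 0.50 (XTH18 and XTH20) to 0.97 (XTH21 and XTH19) and a median of 0.85 over 28 pairs. The points share the 4 groups, and these correlations carry no test. Once group means were removed, r ran from -0.66 (XTH33 and XTH20) to 0.80 (XTH33 and XTH18), with a median of 0.18. XTH29 had r from -0.71 (XTH19) to -0.29 (XTH18) with the others over all arrays, and 0.71 with XTH33 within groups. The covariation was thus mostly between groups, and array-to-array differences within a group were not shared by the whole family.

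Genes of like pattern were sought among the 1795 other genes with a symbol, by Pearson r over the 12 arrays. The bZIP transcription factor gene BZIP34 (AT2G42380) was nearest to XTH16 (r = 0.98) and second for XTH21 (0.97). The serine carboxypeptidase-like gene SCPL34 (AT5G23210) was nearest to XTH19 (0.98) and among the nearest for XTH16 (0.97) and XTH21 (0.97). CYP718 (AT2G42850), a cytochrome P450 gene, led for XTH21 (0.97). For XTH26 the nearest were the signal peptide gene CLE45 (AT1G69588, 0.94), BGLU47 (AT4G21760, 0.93) and RALFL27 (AT3G29780, 0.92). XTH20 was nearest to PYK10 (AT3G09260, 0.96), an abundant root beta-glucosidase of endoplasmic reticulum bodies, XTH33 to the glucosyltransferase gene UGT71C1 (AT2G29750, 0.96), XTH18 to the methionine sulfoxide reductase gene MSRB9 (AT4G21850, 0.92) and XTH32 to SP1L2 (AT1G69230, 0.94). XTH29 was nearest to UGT84B2 (AT2G23250, 0.92) and to the peroxidase gene PRX52 (AT5G05340, 0.90). Such r values also reflect the 4 shared groups.

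Other genes of xyloglucan and the wall were read from fixed lists. EXGT-A3, a family member described in developing veins, did not pass in any of the 7 comparisons. Its signal was 8.27, 8.10 and 7.90 in control roots, 8.19, 8.48 and 8.41 with arsenate, 8.67, 8.65 and 8.06 under hypoxia, and 8.22, 7.98 and 8.20 in the combination, so that all 4 groups overlapped. Its change was 0.27 with arsenate (95% interval -0.12 to 0.66), 0.37 under hypoxia (-0.03 to 0.76) and 0.04 in the combination (-0.35 to 0.44), and under hypoxia the interval lies above the change of each of the 8 falling XTH genes. Of the xyloglucan synthesis list 4 of 17 genes were measured, all of the CSLC family that makes the glucan backbone. CSLC12 (AT4G07960) rose with arsenate (0.56, adjusted p = 0.0478) and fell by 0.88 under hypoxia (adjusted p = 0.00328) and fell by 1.05 in the combination (adjusted p = 0.000748). CSLC6 (AT3G07330) fell by 0.74 under hypoxia (adjusted p = 0.00173) and fell by 0.53 in the combination (adjusted p = 0.0103). CSLC04 (AT3G28180, also CSLC4; 0.50 under hypoxia) and CSLC5 (AT4G31590, -0.52) did not pass in any comparison with control. No gene of the xyloglucan trimming list had an annotated row of its own.

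Expansins loosen the wall without cutting its polymers, and 23 of 36 had a row. With arsenate 1 rose and 2 fell, under hypoxia 5 rose and 4 fell, and in the combination 4 rose and 7 fell. Over all genes 8.34% rose and 9.58% fell with arsenate, 10.8% and 13.7% under hypoxia, and 13.0% and 14.6% in the combination. Their median change was 0.02, 0.12 and -0.59, against -0.01, 0.07 and 0.09 over all genes. EXPA7 (AT1G12560, a root hair expansin) fell by 2.72 under hypoxia (adjusted p = 8.08e-06), EXPA15 (AT2G03090) fell by 2.35 (adjusted p = 1.26e-05) and EXPB1 (AT2G20750) fell by 2.14 (adjusted p = 0.000433). In the combination EXPA7 fell by 3.09, EXPA18 (AT1G62980, a root hair expansin) fell by 2.88 and EXPB1 fell by 2.61. EXPA20 (AT4G38210), named here after its values were seen, went the other way and rose by 1.41 under hypoxia (adjusted p = 0.000186) and by 1.86 in the combination (adjusted p = 1.41e-05).

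Root hair genes, apart from XTH26, were measured for 5 of 30 entries, 2 of which are the expansins EXPA7 and EXPA18. Of the 5, 4 fell and none rose with arsenate, 4 fell and none rose under hypoxia, and 4 fell and 1 rose in the combination, with medians of -0.76, -1.23 and -1.20, where 9.58%, 13.7% and 14.6% of all genes fell. CSLD2 (AT5G16910), a wall synthase gene of root hairs named here after its values were seen, went the other way, with 0.65 (adjusted p = 0.110) with arsenate, 0.50 (adjusted p = 0.180) under hypoxia and a rise of 0.83 in the combination (adjusted p = 0.0318). The mean level of the root hair markers EXPA7 and EXPA18 was below control in each treatment, as for the 8 XTH genes that fell under hypoxia but not for XTH29. It lay between 6.53 and 7.43 on the control arrays and between 5.84 and 6.14 with arsenate. Under hypoxia it lay between 4.24 and 5.16, and in the combination between 3.66 and 4.32. In hypoxia relative to arsenic roots EXPA7 had -1.74 (limma adjusted p = 0.000349), and EXPA18, at -0.92 (adjusted p = 0.0697), did not pass. XTH26 had means of 4.72 under hypoxia and 4.65 with arsenate. This difference did not pass (0.06, SE 0.40, adjusted p = 0.928), and its sign changed when some single arrays were left out. Whether XTH26 departed from the markers was not tested. The part of a change in root hairs in the XTH values was not tested.

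In the remaining lists few genes had an annotated row of their own. COB (AT5G60920), which orients cellulose deposition in root cells, fell by 0.69 under hypoxia (adjusted p = 0.00258) and fell by 0.47 in the combination (adjusted p = 0.0203), and had -0.21 with arsenate. Of 4 pectin methylesterase genes, PMEPCRF (AT5G53370) fell by 1.47 under hypoxia (adjusted p = 0.000287) and fell by 1.61 in the combination (adjusted p = 0.000105). PPME1, VGD1 and PME61 did not pass in any comparison. The hydroxyproline-rich wall protein gene HRGP1 (AT3G54590) had -1.09 with arsenate (adjusted p = 0.354). It fell by 3.53 under hypoxia (adjusted p = 0.00343) and fell by 5.04 in the combination (adjusted p = 0.000203). Its hypoxia arrays were far apart, at 1.58, 5.87 and 3.66 (SD 2.15), and the fit pools the spread of all groups. Its arsenic arrays (6.01 to 6.32) were all below its control arrays (7.12 to 7.33), a separation found downwards for 20.8% of all genes. PRP39, which the symbol pattern for proline-rich proteins also took in, is a pre-mRNA processing factor and no wall protein, and it rose by 0.50 in the combination (adjusted p = 0.0106). Of the wall integrity receptors, THE1 (AT5G54380) fell by 1.24 with arsenate (adjusted p = 0.0463) and had -0.88 under hypoxia (adjusted p = 0.125), and FER (AT3G51550) did not pass in any comparison (-0.44 with arsenate, 0.02 under hypoxia).

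**Figure D4:**
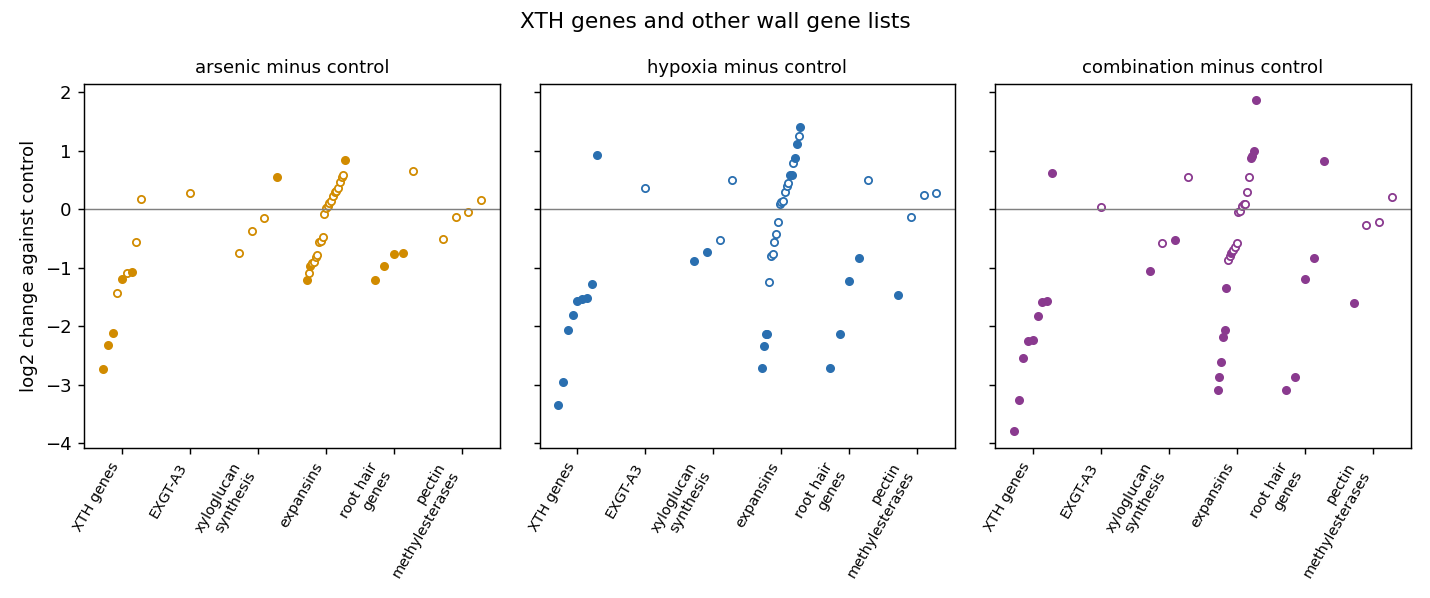
Log2 change against control (y axis) of the XTH genes, EXGT-A3 and 4 other lists (x axis), 1 panel per treatment and 1 point per gene, sorted by value within a list; filled points passed at an adjusted p under 0.05, and EXPA7 and EXPA18 appear in the lists of expansins and of root hair genes. Expansins spread to both sides of 0, and 8 of the 9 XTH genes lie below it in every panel.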

How the data were processed

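Total RNA of roots was measured on 12 arrays, 3 in each of 4 groups taken from the sample titles. The authors deposited 1 log2 signal per row and array, made with RMA per the submitters' processing notes, where Transcriptome Analysis Console 3.1 and 2 releases of Affymetrix Expression Console (1.4, 1.4.1) are also named. RMA includes quantile normalization, which holds the overall distribution of arrays alike. Values were used as deposited. Of 38408 rows, 17481 were listed in the platform annotation, 759 of them named several genes, and 16722 named 1 gene; 16574 of these matched RefSeq (TAIR10.1) by gene ID, used for names and gene order alone. The row with the highest mean stood for a gene. The 20927 rows not listed were assigned to no gene, so a gene without a row here may still be on the array. The array's genome build is not given in the sources used here.

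Group means of the 12 arrays were estimated in 1 model (lmFit and eBayes of limma 3.58.1, R 4.3.3; threshold 0.05) and compared in 7 ways, after tests on simulated data. Precision is limited by having 3 arrays a group and by how far these vary. Members, lists and tests were chosen with earlier results of these data known. All members are named. From other lists every gene is named where up to 4 were measured, otherwise the 3 with the largest changes under hypoxia and in the combination. The result for 1 root hair gene named by this rule is not reported here. Same-numbered arrays of different groups deviated together with r from -0.08 to 0.31, above 0.1 in 6 of 18 pairs. For arrays of unlike number r ran from -0.33 to 0.16, so some likeness by number cannot be dismissed. Numbers were not taken as pairs in the main fit. Alternatives left out arrays or changed scaling, weights, moderation, filter, rows or block. The labels give no scan date or batch.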

Additional observations from a re-analysis of the deposited data

Results flagged for a closer look

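The effect of arsenate on XTH21 differed between roots with and without hypoxia by 2.29 on the log2 scale (interaction, limma adjusted p = 0.00929), and that on XTH16 by 2.01 (adjusted p = 0.00272). The additive level was -0.05 for XTH16, below the lowest signal of any gene on any array (0.84). For XTH21 it was 1.26, below the first percentile of the combination arrays but above their lowest gene signals (0.89 to 1.03). The part of the low end of the scale in these 2 interactions was not tested. Both calls held in every alternative that could be computed, with adjusted p of 0.00278 to 0.0310 for XTH21 and of 0.00109 to 0.0103 for XTH16. XTH16 is outside the set of genes kept by the filter on low means.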

How the results depend on the processing

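Of 983 values of single XTH genes over all alternatives, 914 kept their direction and side of the threshold, 39 lost a call, 19 gained one and 11 changed sign, none of them a called value. With 1 array left out, the combination against hypoxia ran from -0.30 to 0.20 for XTH33 (positive without hypoxia 1 or combination 2 or 3), from -1.08 to 0.29 for XTH18 (positive without hypoxia 1 or combination 2) and from -0.82 to 0.047 for XTH26 (positive without hypoxia 2). Hypoxia against arsenic ran from -0.47 to 0.38 for XTH26 (negative without arsenic 1 or 3 or hypoxia 2) and from -1.10 to 0.27 for XTH18 (positive without hypoxia 3), and the interaction from -0.033 to 0.75 for XTH20 (negative without hypoxia 1). Leaving out 1 array gave 5 XTH genes called with arsenate, 7 to 9 under hypoxia, 8 to 9 in the combination, 2 to 4 in the combination against arsenic, 0 in the combination against hypoxia, 0 to 3 in hypoxia against arsenic and 2 to 4 in the interaction. Over all genes these counts were 1889 to 2492, 2836 to 3664, 3494 to 4151, 1065 to 1824, 101 to 1000, 2168 to 3420 and 213 to 502, with counts above those of all arrays in the combination against hypoxia (573) and in the interaction (457) for some arrays left out; the cause was not tested. With array weights 8 XTH genes passed with arsenate and 5 in hypoxia against arsenic, and over all genes 4700 passed with arsenate, 3527 in the combination against arsenic and 886 in the interaction; the cause was not tested. With the compared groups fitted alone 8 XTH genes passed with arsenate and 30 genes in all in the combination against hypoxia. The filter on low means left out XTH16 and thus 1 XTH gene in the interaction. Testing all 38408 rows gave 5113, 7517 and 8437 calls against control, 3100 in the combination against arsenic and 7226 in hypoxia against arsenic. It gave 806 in the combination against hypoxia and 512 in the interaction. These counts are of rows, and the cause of their differences was not tested. With the replicate number as a block 7 XTH genes fell with arsenate, XTH18 and XTH32 being added (adjusted p = 0.0392 and 0.0393), and it changed no other XTH call. Over all genes the block gave 3067, 4169 and 4690 calls against control. In the check of pairing, 6 of 12 arrays correlated best with arrays of their own number.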

Other observations

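EXLB1 (AT4G17030), an expansin-like gene named here after its values were seen, was the 1 expansin of 23 that passed the interaction. Of all genes 2.76% passed it, 1.43% downwards. EXLB1 went against the direction of XTH16 and XTH21. Its signal was 7.44, 6.86 and 6.52 in control roots, 8.08, 7.47 and 7.80 with arsenate, 6.76, 6.38 and 6.41 under hypoxia, and 4.68, 4.80 and 4.78 in the combination. It rose by 0.84 with arsenate (limma, adjusted p = 0.0202), had -0.42 under hypoxia (adjusted p = 0.191) and fell by 2.19 in the combination (adjusted p = 1.55e-05), with an interaction of -2.61 (SE 0.32, adjusted p = 0.00119).

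The spread between replicates of the XTH genes differed by gene and group. The SD of XTH18 was 1.37 under hypoxia and 1.03 in the combination, higher than in 99.6% and 99.8% of genes, whereas it was 0.34 in control and 0.34 in arsenic roots. The SD of XTH16 was 0.04 under hypoxia, at the 2.86th percentile, and 0.45 in control roots, at the 93.8th.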
